A study of Mus musculus with 6 samples.

Results

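The genes described here encode the proteins of the cytoplasmic ribosome. They were taken from a deposited table of splicing events as every event whose gene symbol starts with Rpl, Rps or Rplp and a number, or is Rpsa, leaving out ribosomal protein kinases, pseudogenes and binding proteins. The rule found 228 of 45595 events, in 65 of 9594 genes. Of these genes 39 name large-subunit proteins or relatives (Rpl22l1 and Rpl7l1 among them) and 26 name small-subunit proteins or relatives (Rps27l among them). By kind there were 129 skipped exons, 23 events at an alternative acceptor (3′ splice site) and 14 at an alternative donor (5′ splice site), 36 retained introns and 26 pairs of mutually exclusive exons.

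The RNA came from N2a (Neuro-2a), a neuroblastoma cell line of the mouse. The labels give 3 libraries of hnRNP DL-/- cells and 3 of wild-type cells, with no treatment. hnRNP DL belongs to the heterogeneous nuclear ribonucleoproteins, which bind new transcripts and influence their splicing. The labels do not say whether the knockout is 1 clone, or whether the libraries of a genotype came from separate cultures, so p-values measure the spread between these libraries, which may be technical. The table holds 2 sets of 3 libraries, and neither its headers nor the labels say which set is which genotype. They are called set 1 and set 2, every difference is set 1 minus set 2 (a ratio is set 1 over set 2), and no genotype is attached to either.

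A ribosome needs its proteins in nearly equal number, and their genes are among the most actively transcribed of any growing cell. Several ribosomal proteins limit their own supply through splicing: the protein favours a form of its own message that carries an early stop codon, and nonsense-mediated decay, the pathway that removes messages with early stops, destroys it. Such forms are known for human RPL3 and RPL12 and for the Caenorhabditis elegans genes of Rpl3, Rpl10a and Rpl12. Many introns of these genes also hold small nucleolar RNAs (snoRNAs), which guide the modification of ribosomal RNA and are cut out of the intron after splicing.

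Spliced forms of several main events are shown first, and the levels of those events below refer to these stretches. All letters come from GENCODE vM21 transcripts on the GRCm38 build (mm10), 5′ to 3′ on the strand of the gene. The first set is the stretches that a form annotated for nonsense-mediated decay adds to the message. Capitals mark the first stop codon in the reading frame of the coding transcripts. They lie at chr15:80081032-80081211 on the minus strand (Rpl3, 180 bases, stop at base 176), chr17:28329048-28329280 on the plus strand (Rpl10a, 233 bases, stop at base 14) and chr7:24886107-24886187 on the plus strand (Rps19, 81 bases, stop at base 45). The stretches of Rpl12 (121 bases, chr2:32961840-32961960, plus strand) and Rpl22l1 (67 bases, chr3:28806670-28806736, plus strand) hold no stop in frame and, being no multiple of 3 bases long, shift it.
Rpl3 upstream acceptor: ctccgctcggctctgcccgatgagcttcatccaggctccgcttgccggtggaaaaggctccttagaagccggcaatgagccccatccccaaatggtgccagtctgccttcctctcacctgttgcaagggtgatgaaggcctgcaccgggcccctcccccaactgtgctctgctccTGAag
Rpl10a downstream donor: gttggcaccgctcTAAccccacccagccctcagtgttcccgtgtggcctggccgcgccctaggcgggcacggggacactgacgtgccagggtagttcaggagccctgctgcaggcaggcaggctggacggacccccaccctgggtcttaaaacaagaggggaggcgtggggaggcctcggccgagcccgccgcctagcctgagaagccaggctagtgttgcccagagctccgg
Rps19 skipped exon: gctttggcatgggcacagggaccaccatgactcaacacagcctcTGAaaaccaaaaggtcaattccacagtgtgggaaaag
Rpl12 downstream donor: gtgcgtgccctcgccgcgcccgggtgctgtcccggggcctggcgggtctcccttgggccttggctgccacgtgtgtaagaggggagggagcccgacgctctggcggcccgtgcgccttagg
Rpl22l1 upstream acceptor: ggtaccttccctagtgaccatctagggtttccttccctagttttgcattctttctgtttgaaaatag

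The second set is the regions with the 3 largest differences in level among events whose libraries did not overlap between the sets. The Rps24 exon (18 bases, chr14:24494052-24494069, plus strand) has its in-frame stop in capitals, at base 4, and belongs to annotated coding transcripts. The Rpl4 intron (283 bases, chr9:64175301-64175583, plus strand) has the snoRNA gene Snord16a in capitals, at 64175423 to 64175521. The Rpl31 intron (142 bases, chr1:39368007-39368148, plus strand) lies in the 5′ UTR. For it the first and the last 30 bases are shown, with the splice-site GT and AG in capitals.
Rps24 skipped exon: aaaTGAaatacctagcag
Rpl4 retained intron: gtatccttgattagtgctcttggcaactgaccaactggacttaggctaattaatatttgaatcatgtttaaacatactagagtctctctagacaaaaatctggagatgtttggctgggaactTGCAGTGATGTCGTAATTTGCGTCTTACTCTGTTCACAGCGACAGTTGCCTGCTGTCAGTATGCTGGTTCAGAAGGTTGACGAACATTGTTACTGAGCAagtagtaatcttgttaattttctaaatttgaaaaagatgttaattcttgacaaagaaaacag
Rpl31 intron start: GTggggtttgtcccgcgccgcgcggaggct
Rpl31 intron end: agagcctccctccctgtcgcctgcgtctAG

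Junction reads over all events, where a read can count in several events, summed to 13573870 to 16707466 in set 1 and 13501749 to 18185394 in set 2. The ribosomal protein events took 10.74 to 10.83% of them in set 1 and 11.46 to 11.59% in set 2. In a principal component analysis of the junction totals, library 1 of set 1 stood at −5.84 on component 1 (40.2% of the variance) and its companions at 18.3 and 22.0, with set 2 at −18.0, −8.83 and −7.67. Library 1 of set 1 thus lay beside the libraries of set 2 on this component. The lowest scores on component 2 (26.7%), −18.9 in set 1 and −8.91 in set 2, were those of library 1, so results are also given below without both of them. Hnrnpdl, the targeted gene, had 2014, 1806 and 1760 reads on its most covered event in set 1, against 2569, 2146 and 2034 in set 2, from which no genotype is read. Of 16 markers of neuroblastoma and neurons 7 were listed in the table and 2 of these, Dbh and Chgb, were lower in set 1, with log2 ratios of -2.37 and -1.01 (limma adjusted p = 0.00348 and 0.0132). Dbh was low, at 4.16, 1.42 and 1.23 reads per 1000000 in set 1, against 16.1, 14.2 and 13.8 in set 2. Over the 7 markers the median log2 ratio was -0.065, with 5 below 0, and Map2 lay the other way at 0.28 (limma adjusted p = 0.727). The part of these markers in the results below was not tested. Of 16 markers of other cells 4 were listed, and 0 of them reached a mean of 20 reads.

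The inclusion level is the share of a message that holds the alternative stretch, from junction reads scaled by the length of each form. Most ribosomal protein events were nearly constant in these cells. Of the 129 skipped exons 110 had a mean level of 0.99 or more, and the skipping junction of 98 lay in no annotated transcript. Of 222 events with a mean of 20 reads or more per library, 31 (14.0%) had a less used form at a level of 0.05 or more, against 30.3% of all 39419 such events. Among skipped exons it was 4 of 125 in these genes and 18.0% of 28522 elsewhere, and among retained introns 8 of 36 in these genes and 55.5% of 2183 elsewhere. The median event had 6951 reads per library in these genes and 147 in the others. The part of depth in these shares was not tested.

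The events overlap. The 202 events other than mutually exclusive exons use 159 different skipping junctions, and 36 of these junctions were listed by several events, with the same counts in each. The gene with most events, Rpl13a, had 24, and 25 genes had 1. Mutually exclusive exons made up 14 of the 31 events above 0.05. In Rps19 the level of such a pair was 0.670 ± 0.0090 in set 1 and 0.677 ± 0.0089 in set 2 (SD, n = 3 each). Rpl7a, Rplp2 and Rpl9 had pairs at 0.681, 0.689 and 0.734 in set 1 and 0.672, 0.703 and 0.712 in set 2, and Rpl27a one at 0.203 and 0.195. Reads that join these exons to their constitutive neighbours count for a form whether or not the other exon is also present, so these levels are no measure of an exclusive choice. Without this kind 17 of 197 events (8.63%) in 10 genes were above 0.05, against 23.8% of all tested events.

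Of the 228 events 2 passed an adjusted p under 0.05 with a change of 0.10 or more in the authors' deposited table, and the rule called 0.645% of all events. These were the Rpl31 intron and an exon of Rpl18. The moderated quasi-binomial test called 0 of 222 by the same thresholds, where 0.0279% of all tested events were called. It estimates the spread between libraries across events. The authors' p-values were adjusted within each kind of event and those of this test over all kinds, so the adjusted values are not fully alike. By the quasi-binomial test 27 of the 222 (12.2%) had an unadjusted p under 0.05, against 3.8% of all tested events. At any size of change 3 passed the adjusted threshold, where 0.0609% of all tested events did. The 222 events had a median of 6951 reads per library, against 147 in the other genes, and some share their skipping reads. Their median absolute change in level was 0.000396, against 0.00837 in the other genes. The part of depth in these counts was not tested. The limma test on logit levels passed 0 of the 222 at any size (0.00761% of all tested events), and 7 (3.15%) had an unadjusted p under 0.05, near the 3.3% of all tested events. That test first set levels below 0.01 or above 0.99 to these bounds, so events that stay beyond a bound could not pass it. With 110 of the 129 skipped exons at a mean level of 0.99 or more, its result does not cover most of these exons. Libraries of set 1 and set 2 were fully separate in level in 19 of the 222 events (10 higher and 9 lower in set 1), or 8.56%, against 5.93% of all tested events. The smallest p of an exact test of 3 against 3 libraries is 0.1, so lack of overlap alone does not pass 0.05, here or below.

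Rpl31 is a large-subunit protein at the rim of the tunnel through which the new protein leaves. Reads across the ends of its 5′ UTR intron numbered 350, 271 and 278 in set 1, against 467, 390 and 421 in set 2. Reads on the spliced junction numbered 232, 267 and 201 in set 1, against 247, 200 and 168 in set 2. The intron level was thus 0.437, 0.343 and 0.415 in set 1, against 0.493, 0.501 and 0.563 in set 2. Each library of set 1 lay below each library of set 2. Means were 0.398 ± 0.0492 in set 1 and 0.519 ± 0.0384 in set 2 (SD, n = 3 each). Adjusted p-values were 0.00831 in the authors' deposited table and 0.724 by the quasi-binomial test. Placing the spread along the total instead of the rarer count gave 0.0382, and leaving out library 1 of either set gave a change of -0.153 with an adjusted p of 0.698. Per 1000 reads of the gene's most covered event, reads across the intron ends numbered 101, 95.2 and 102 in set 1 and 115, 136 and 154 in set 2, which do not overlap. Reads on the spliced junction numbered 66.8, 93.8 and 73.9 per 1000 in set 1 and 61.1, 70.0 and 61.6 in set 2, which do. The spliced junction held 7.05% as many reads as that event, so it belongs to a minor part of Rpl31 messages, and both forms are annotated as coding.

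Rpl4, which reaches into the exit tunnel, had the other retained intron with an authors' adjusted p under 0.05. Its intron ends held 837, 513 and 431 reads in set 1, against 1147, 853 and 819 in set 2. The spliced junction held 10028, 7752 and 7884 reads in set 1, against 11194, 8133 and 8121 in set 2. The level was 0.0401, 0.0320 and 0.0266 in set 1, against 0.0487, 0.0498 and 0.0480 in set 2, and the sets did not overlap. Means were 0.0329 ± 0.0068 in set 1 and 0.0489 ± 0.0009 in set 2 (SD, n = 3 each). Adjusted p-values were 0.00132 in the authors' deposited table and 0.147 by the quasi-binomial test, or 0.0892 without library 1 of either set. With the spread placed along the total count, the quasi-binomial test gave 0.000385, at a change of -0.016. These reads cross an exon-intron boundary, and the snoRNA printed in capitals above lies inside the intron.

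Rpl18, a further large-subunit protein, had the other event called by the authors, a 50-base coding exon at chr7:45720438-45720487. It was included in 68, 67 and 57 reads in set 1, against 67, 59 and 72 in set 2. It was skipped in 3, 2 and 5 reads in set 1, against 11, 5 and 18 in set 2. The level was 0.934 ± 0.0344 in set 1 and 0.823 ± 0.0741 in set 2 (SD, n = 3 each), and the libraries overlapped. The adjusted p was 0.0435 in the authors' deposited table and 0.746 by the quasi-binomial test. The same skipping reads counted against the 194-base form of this exon gave levels of 0.999 in set 1 and 0.997 in set 2. The skipping reads were 0.0724% as many as the reads of the gene's most covered event.

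Rpl13a, a large-subunit protein also known for a translation-silencing complex in human cells, had a 119-base exon whose skipping is annotated for nonsense-mediated decay. It was skipped in 199, 145 and 188 reads in set 1, against 152, 127 and 156 in set 2. Its level was 0.889, 0.914 and 0.884 in set 1, against 0.928, 0.936 and 0.910 in set 2. Library 2 of set 1 lay above library 3 of set 2, so the sets overlapped. The adjusted p was 0.0446 in the authors' deposited table, with a change too small for the call, and 0.746 by the quasi-binomial test. With the spread placed along the total count, the quasi-binomial test gave 0.00983. The same skipping reads counted against the 86-base form of this exon gave levels of 0.971 in set 1 and 0.979 in set 2, with overlap. The adjusted p of that event was 0.0923 in the authors' deposited table. The share of skipping thus depends on the form it is counted against. A 16-base alternative acceptor of the same gene, also annotated for decay, stood at 0.0268 ± 0.0020 in set 1 and 0.0207 ± 0.0019 in set 2 (SD, n = 3 each), without overlap (quasi-binomial adjusted p = 0.746).

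**Figure D1:**
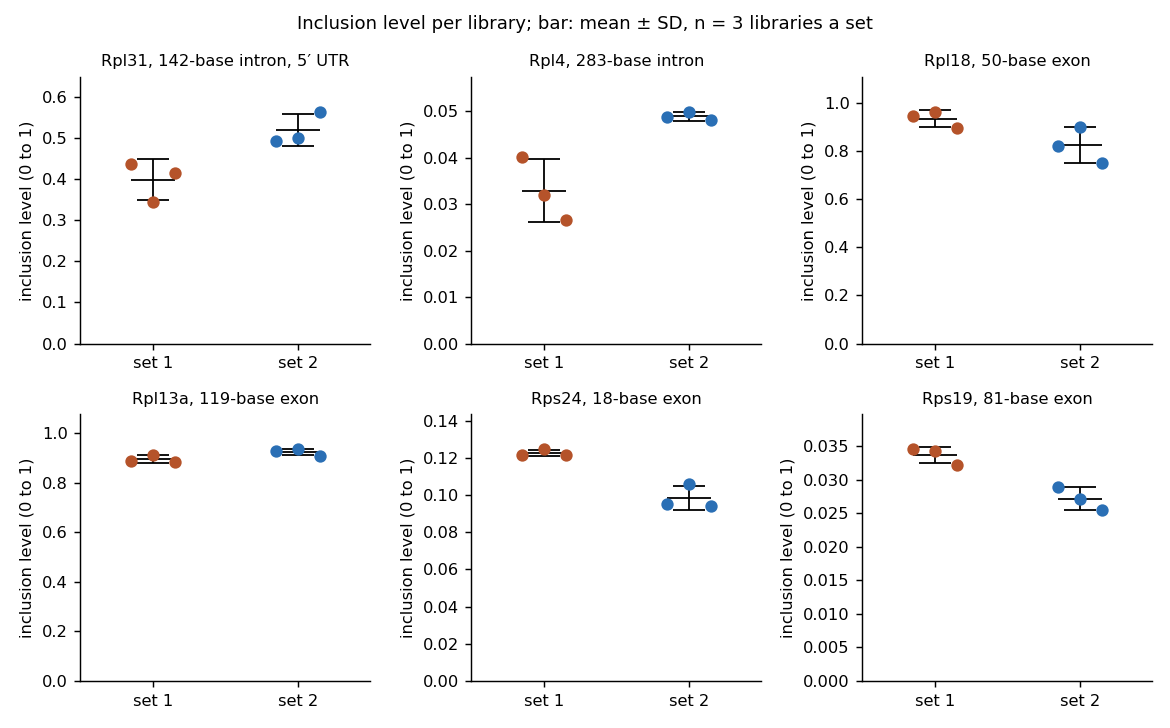
Inclusion level (0 to 1, vertical axis from 0) of 6 events in each library of set 1 and set 2, with mean and SD over 3 libraries. The sets do not overlap for the introns of Rpl31 and Rpl4 and the exons of Rps24 and Rps19, and do overlap for the exons of Rpl18 and Rpl13a.

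Rps24, a small-subunit protein, ends in one of several short C-terminal variants, depending on the last exons used. The 18-base exon shown above was included in 438, 341 and 345 reads in set 1, against 410, 313 and 265 in set 2. It was skipped in 2835, 2148 and 2232 reads in set 1, against 3499, 2370 and 2291 in set 2. The level was 0.122, 0.125 and 0.122 in set 1, against 0.0952, 0.106 and 0.0941 in set 2. All 3 libraries of set 1 lay above those of set 2. The adjusted p was 0.746 by the quasi-binomial test and 0.256 in the authors' deposited table. It was 0.0159 with the spread placed along the total count. For a neighbouring 20-base exon the levels were 0.986 in set 1 and 0.991 in set 2, with overlap.

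Rps19 is the small-subunit protein whose gene is most often mutated in human Diamond-Blackfan anaemia. Its 81-base exon, in decay transcripts only, was included in 204, 198 and 187 reads in set 1, against 190, 165 and 147 in set 2. Skipping reads numbered 3706, 3627 and 3649 in set 1, against 4159, 3837 and 3651 in set 2. The level was 0.0337 ± 0.0013 in set 1 and 0.0272 ± 0.0017 in set 2 (SD, n = 3 each), without overlap (quasi-binomial adjusted p = 0.746). Rps9, near the entry of the message channel, had a 174-base exon of the same annotation at 0.0245 in set 1 and 0.0232 in set 2, with overlap.

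The decay forms with known counterparts in other species did not separate the sets. Rpl3, which lies next to the peptidyl transferase centre, joined to its upstream acceptor in 170, 96 and 140 reads in set 1, against 193, 131 and 112 in set 2. The usual acceptor had 4346, 3379 and 3277 reads in set 1, against 5352, 3803 and 3513 in set 2. The alternative share of these junction reads was 3.54 ± 0.695% in set 1 and 3.3 ± 0.197% in set 2 (SD, n = 3 each), and the libraries overlapped. The table's own level for this event, 0.0526 in set 1 and 0.0505 in set 2, also counts reads that run across the exon-intron boundary.

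Rpl10a, part of the mobile L1 stalk, used its downstream donor in 408, 360 and 394 reads in set 1, against 424, 336 and 337 in set 2. The usual donor had 6660, 4728 and 4884 reads in set 1, against 8502, 4920 and 4803 in set 2. The share was 6.77 ± 0.886% in set 1 and 5.90 ± 0.999% in set 2 (SD, n = 3 each), with overlap. The table's level was 0.134 in set 1 and 0.119 in set 2, about double the junction share, since 1841, 1551 and 1571 inclusion reads in set 1 and 1681, 1495 and 1496 in set 2 include boundary reads. Library 1 of set 2 had the lowest share in that set and library 1 of set 1 the lowest in its own.

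Rpl12, at the base of the P stalk, had 1225, 1087 and 1129 inclusion reads for its downstream donor in set 1, against 1140, 1124 and 1130 in set 2. The usual donor had 10736, 10132 and 9483 reads in set 1, against 12752, 9893 and 9522 in set 2. The level was 0.0591 ± 0.0029 in set 1 and 0.0560 ± 0.0078 in set 2 (SD, n = 3 each), with overlap. The alternative junction is not counted on its own in the table, so boundary reads could not be removed here.

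Rpl22l1 encodes a relative of Rpl22 and had the highest level of a decay form among the events at alternative sites. The long form had 201, 157 and 272 reads in set 1, against 248, 211 and 233 in set 2, and the short coding form 88, 95 and 70 in set 1, against 101, 89 and 89 in set 2. Boundary reads could not be removed here either. The level was 0.613, 0.534 and 0.729 in set 1, against 0.630, 0.622 and 0.645 in set 2. Set 1 held both the lowest and the highest library, and the adjusted p was 1.0 by the quasi-binomial test and in the authors' deposited table. In all, 21 events in 15 genes paired a form found in coding transcripts with one found in decay transcripts and no coding one. The sets did not overlap in 2 of these 21, the Rps19 exon and the 16-base Rpl13a acceptor, against 5.93% of all tested events, so the count is near the share among all events.

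**Figure D2:**
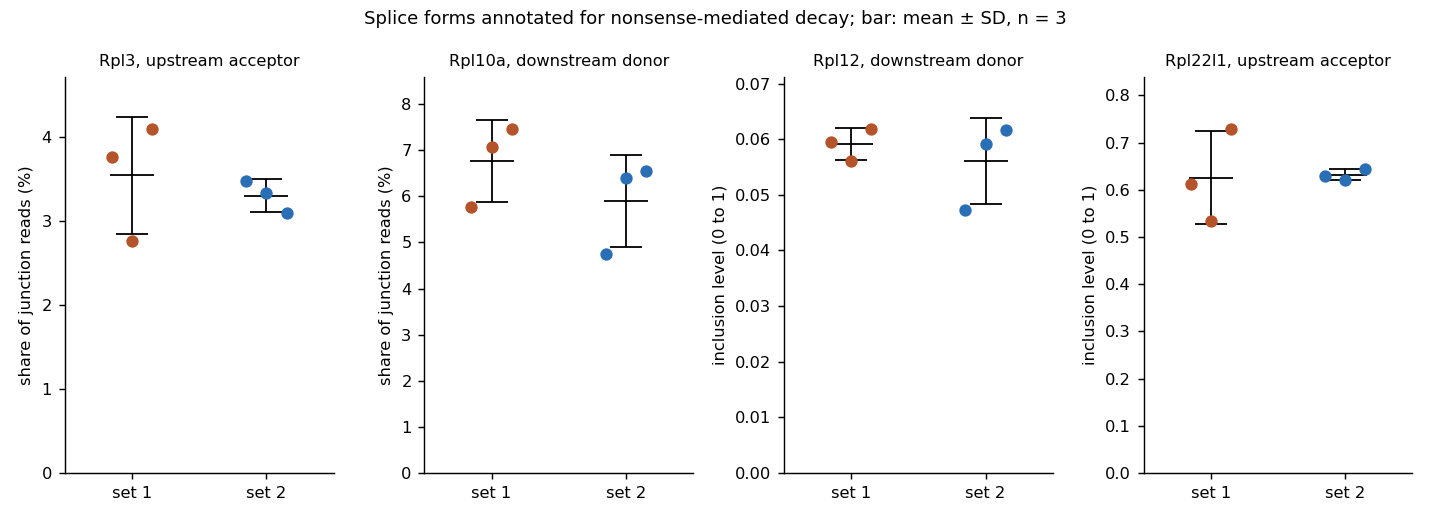
Share of junction reads on the alternative site (Rpl3 and Rpl10a, %) and inclusion level (Rpl12 and Rpl22l1, 0 to 1) in each library of set 1 and set 2, with mean and SD over 3 libraries. In all 4 genes the libraries overlap.

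The 36 retained introns, from 78 to 1236 bases long, came from 26 genes, and 26 had a mean level under 0.05. Rpl7 and Rps3 had the lowest levels, at 0.000385 and 0.000470 in set 1 and 0.000423 and 0.000334 in set 2. High levels often belonged to introns spliced only in a minor form. The 93-base Rpl10a intron stood at 0.657 in set 1 and 0.669 in set 2, the 403-base Rpl3 intron at 0.374 and 0.388, and the 121-base Rpl13a intron at 0.583 and 0.580. Their spliced junction is the alternative site of a rare form and held 3.66, 3.21 and 0.758% as many reads as the most covered event of the gene. The 674-base Rpl12 stretch with the snoRNA gene Snora65, at 0.753 in set 1 and 0.760 in set 2, spans an exon that only 0.275% as many reads skip. The 90-base Rps18 intron stood at 0.246 ± 0.0402 in set 1 and 0.312 ± 0.0914 in set 2 (SD, n = 3 each), with overlap. Its spliced junction held a mean of 60.3 reads, 4.74% as many as the most covered event of the gene. This junction lies in annotated coding transcripts but was poorly covered, so the level is no firm measure of retention.

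Of the 36 introns 22 had a lower mean level in set 1, and among the other genes 1347 of 2183 did. The libraries did not overlap in 8, of which 7 were lower in set 1, and in the other genes 174 lay lower and 67 higher in set 1 without overlap. Besides Rpl31 and Rpl4 these included Rpl23a, a large-subunit protein near the tunnel exit, at 0.0186 in set 1 and 0.0253 in set 2. The exception was Rps27a, at 0.0129, 0.0066 and 0.0075 in set 1, against 0.0059, 0.0048 and 0.0056 in set 2, where library 1 of set 1 stood highest (quasi-binomial adjusted p = 0.187). Of the 36 introns 7 hold a snoRNA gene, and 26 of the 65 genes hold at least 1.

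**Figure D3:**
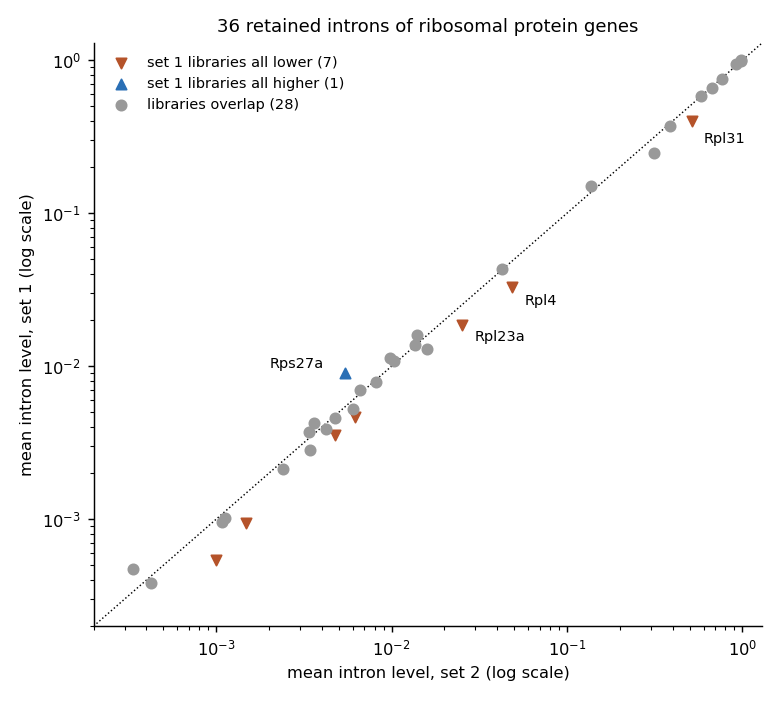
Mean level of 36 retained introns in set 1 (vertical, log scale) against set 2 (horizontal, log scale), with the line of equal levels. Triangles mark the 7 introns whose 3 libraries of set 1 all lie below set 2 and the 1, in Rps27a, where they all lie above. Grey points overlap.

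The 3 events that passed the quasi-binomial test involved very rare junctions. Rps27a is made as a fusion of ubiquitin and a small-subunit protein. A junction that passes over its 55-base exon (chr11:29547206-29547260), in no annotated transcript, had 1, 6 and 6 reads in set 1, against 35, 19 and 40 in set 2. Inclusion reads of the 472-base alternative acceptor event numbered 11122, 10957 and 10548 in set 1, against 13052, 11961 and 12347 in set 2. The level was 0.999 in set 1 and 0.995 in set 2, without overlap (adjusted p = 0.000108 by the quasi-binomial test, 1.0 by limma on logit levels and in the authors' deposited table). These levels lie above the upper bound of the logit test, 0.99, so that test could not separate them. The same skipping reads, counted for the exon itself, gave an adjusted p of 0.00215. Without library 1 of either set the changes were 0.00369 and 0.00208, against 0.00418 and 0.00233 with all libraries, and neither passed (adjusted p = 0.537 and 0.856). When single libraries were left out, the event at the acceptor passed each time (adjusted p at most 0.0369), while that of the exon failed without library 1 or 2 of set 1 (0.135 and 0.0592) and without library 1 or 3 of set 2 (0.056 and 0.0998).

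Rpl17, a large-subunit protein beside the exit tunnel, had 0 reads skipping a 41-base exon in each library of set 1, against 49, 0 and 0 in set 2, with levels of 1.0 in set 1 and 0.996 in set 2 (quasi-binomial adjusted p = 0.000436). The sets overlapped, and without library 1 of set 2 the change was 0. Without library 2 of set 1 the change was 0.00382, as with all libraries, and the adjusted p 0.0592. In set 1, 0 of 12190 reads skipped the exon, which allows a share of up to 0.0246%, for counting error only. Rps2, which lines the entry of the message channel, had 21, 0 and 0 reads skipping a 198-base exon in set 1, against 0 of 74981 reads in set 2, which allows up to 0.0040% (adjusted p = 0.297). Genes of this family have many near-identical pseudogene copies, and how reads with several matches were treated is not given in the sources used here, so junctions this rare are uncertain.

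**Figure D4:**
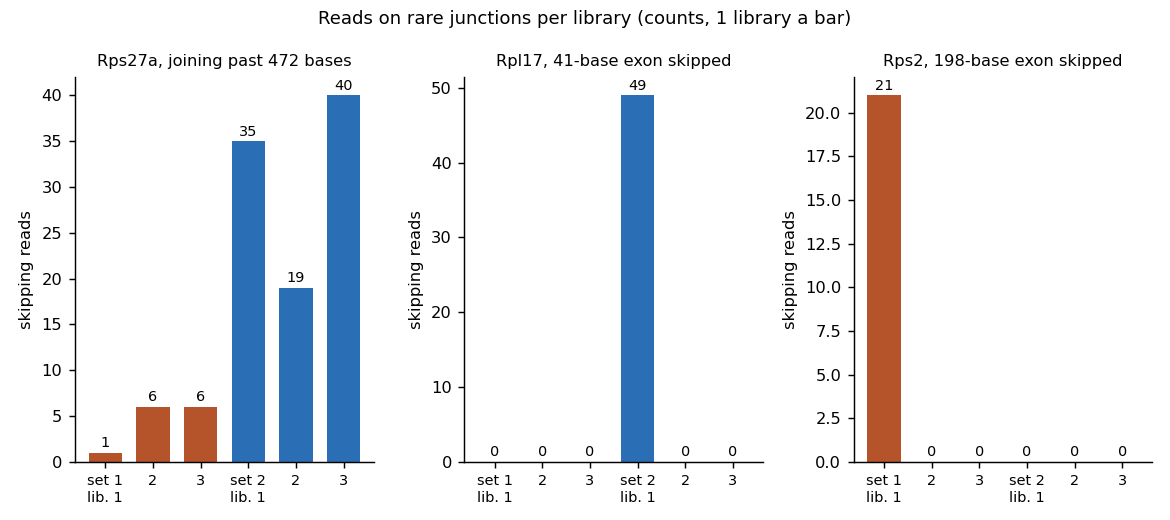
Reads on 3 rare junctions (vertical axis, counts from 0) in each library of set 1 and set 2. The Rps27a junction has 1 to 6 reads in set 1 and 19 to 40 in set 2, while those of Rpl17 and Rps2 come from 1 library each.

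As a further small change without overlap, Rps27, a zinc-finger protein of the small subunit, included a 113-base exon at 0.00940 in set 1 and 0.00474 in set 2, from 30, 22 and 24 reads in set 1, against 15, 18 and 8 in set 2. It did not pass a test (quasi-binomial adjusted p = 0.746). Rpl30, which in yeast blocks the splicing of its own message, had a nearly constant exon at 0.998 in both sets, and Rps3, at the entry of the message channel, one at 1.0 in both. Of the relatives, Rpl7l1 had a 109-base exon with levels of 0.998 in set 1 and 0.999 in set 2. Rps27l had a 79-base exon with levels of 0.0101 in set 1 and 0.0111 in set 2, and both overlapped.

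The reads of each gene's most covered event were scaled to CPM (reads per 1000000), with the sum over all genes as the total. These totals measure message amount only indirectly, since they count reads on the listed events. In set 1 the mean was 44.4 CPM for Rps3a1 and 5318 CPM for Rps2. The ratios therefore compare a gene between the sets, and the totals do not rank genes by message amount. By limma 0 of the 65 genes passed an adjusted p under 0.05, where 1.06% of 8281 genes did, and 3 (4.62%) had an unadjusted p under 0.05, against 9.44% of all genes. The ratio lay below 0 on the log2 scale in 60 of the 65 genes (47.7% of all genes), or in 55 without library 1 of either set (46.3% of all genes). All 3 libraries of set 1 lay below set 2 in 9 of them (6.67% of all genes), with 0 the other way. The median log2 ratio was -0.093, against 0.010 over all genes. It was -0.094 for the 39 large-subunit genes and -0.081 for the 26 small-subunit genes. Together these genes took 14.47 to 14.93% of such reads in set 1 and 15.35 to 15.94% in set 2. These are shares of the reads within the table and not of the whole library. In bulk RNA, fewer cells making a message and less of it per cell cannot be told apart.

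Rps14, on the platform of the small subunit, had the lowest ratio. Its level was 1665, 1664 and 1681 CPM in set 1, against 2003, 2043 and 1921 CPM in set 2, without overlap. The log2 ratio was -0.25 ± 0.076 (SE, limma adjusted p = 0.190), and without library 1 of either set it was -0.24 with an adjusted p of 0.0285. With those libraries left out 4.9% of all 8204 genes passed, and of the 65 genes Rps14 alone. Rpl6, which binds the outside of the large subunit, had 1682, 1522 and 1447 CPM in set 1, against 2056, 1820 and 1665 CPM in set 2. The libraries overlapped by a small margin, and the log2 ratio was -0.25 ± 0.096 (SE, limma adjusted p = 0.374). Rpl32, also of the large subunit, had 4535, 4682 and 4778 CPM in set 1, against 5106, 5272 and 5474 CPM in set 2, without overlap (log2 ratio -0.18 ± 0.074, limma adjusted p = 0.427). Rps27a and Rps3a1 completed the lowest 5, both at -0.18, with overlapping libraries. Rps3a1 had few reads, at 203, 207 and 179 in set 1, against 289, 196 and 212 in set 2.

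The 2 highest ratios were those of Rpl7l1 and Rps27l, relatives of canonical proteins, and neither passed. Rpl7l1 had 266, 344 and 336 CPM in set 1, against 265, 293 and 269 CPM in set 2 (log2 ratio 0.19 ± 0.114, limma adjusted p = 0.696). Rps27l, whose gene responds to p53, had 170, 194 and 183 CPM in set 1, against 156, 189 and 166 CPM in set 2 (0.10 ± 0.112, limma adjusted p = 0.894). In both the libraries overlapped. Rpl22l1, also a relative, lay the other way at -0.10 ± 0.162 (limma adjusted p = 0.933). The canonical Rpl36a, Rps15 and Rps18 followed at 0.04, 0.02 and 0.02, and the sign of the last pair changed when single libraries were left out.

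**Figure D5:**
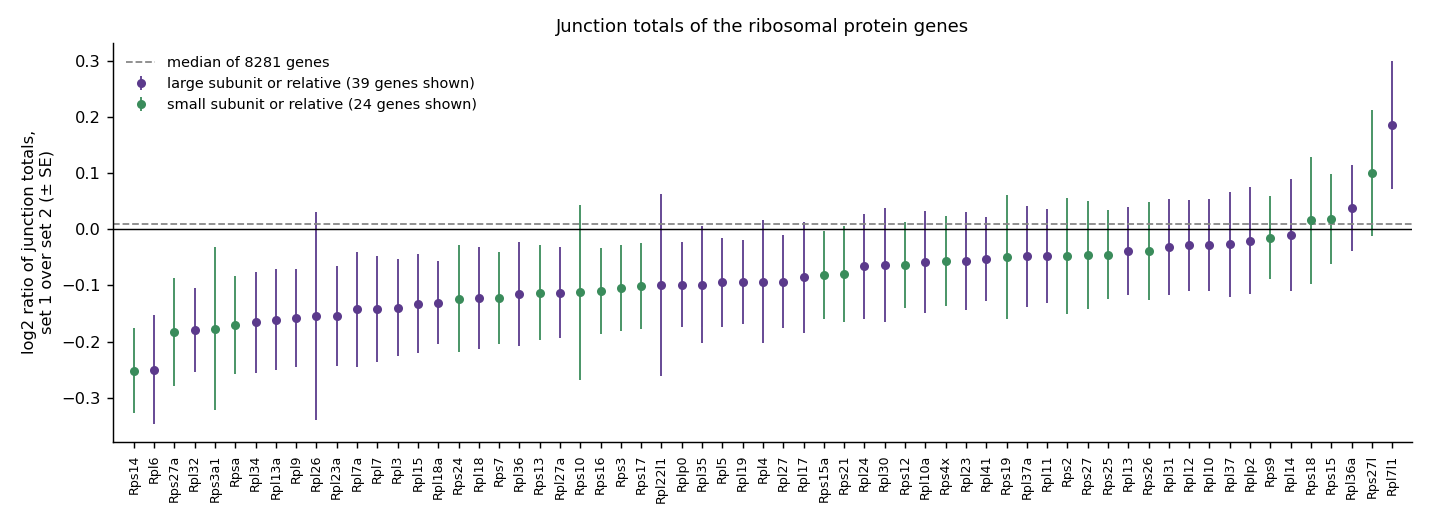
Log2 ratio of junction totals, set 1 over set 2, with SE for 63 of the 65 genes in order of the ratio, large-subunit and small-subunit genes in separate colours. The dashed line is the median of 8281 genes, 0.010. Of the points 58 lie below 0 and 5 above.

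Neighbouring gene groups of the translation machinery were measured in the same way. Of all 8281 genes 1.06% passed the limma test, 47.7% lay below 0, and the median log2 ratio was 0.010. A count of 0 passing in groups of these sizes is near that share. Of 57 mitochondrial ribosomal protein genes 0 passed the limma test, with 15 below 0 and a median log2 ratio of 0.079. Fau and Rack1, which encode ribosomal proteins under other names, lay at -0.07 and -0.12 and did not pass. Of 17 elongation factors and other messages with a terminal oligopyrimidine start 0 passed, with 11 below 0 and a median of -0.085. The smallest p among them was that of Btf3, a chaperone subunit that binds new proteins at the ribosome, with all 3 libraries of set 1 below set 2 (log2 ratio -0.77 ± 0.182, limma adjusted p = 0.0689). Of 51 ribosome assembly genes 0 passed (20 below 0, median 0.039), and of 15 nonsense-mediated decay genes 0 passed (5 below 0, median 0.025).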

How the data were processed

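RNA-seq libraries of mouse N2a cells, 3 hnRNP DL-/- and 3 wild type per the labels, were represented by 1 deposited table of splicing events in 5 sections, in the format of rMATS. The submitters' processing notes name HISAT2 2.1.0, Bowtie2 2.2.3, HTSeq 0.6.0 and the build mm10. Per the file headers, its cells hold comma-separated lists of inclusion and skipping junction counts and deposited inclusion levels (0 to 1) per library, beside the authors' p-values and adjusted p-values. Because each cell holds several libraries, no count model for genes was run on it. Recomputed levels lay within 0.0005 of the deposited ones. 0 columns of per-library values were left unused.

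From the counts, levels were compared by a quasi-binomial test whose spread estimate was moderated across events with a like number of rarer-form reads (limma 3.58.1, R 4.3.3), over all events with a mean of 20 reads or more, with Benjamini-Hochberg adjustment over all kinds. Calls needed an adjusted p under 0.05 and a change of 0.10. Junction totals per gene were tested by limma on log2(CPM + 1), with a trend and a mean of 20 reads or more. Fold changes on this scale understate those of low genes. In a simulation of 8000 skipped exons, changes were set in exons of middle level. An adjusted p under 0.05 recovered 2, 21, 40 and 47 of 50 changes of 0.1, 0.2, 0.3 and 0.4, with 0 false calls. The median level of tested skipped exons in the ribosomal protein genes was 0.9997, so this recovery does not speak for most of them. On simulated totals of 8281 genes 75 and 99 of 100 changes of 1.5 and 2.0 times were recovered, with 11 false calls. Every simulated gene had the same dispersion, and no library was set apart from its companions. The median log2 ratio of the ribosomal protein genes, -0.093, is smaller than these changes, so this recovery does not speak for it. Intervals and floors (3 reads) cover counting error only.

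Named were the events called by either test or of adjusted p under 0.05, the 10 largest changes without overlap, the 12 genes with the highest less used form, the 5 highest and 5 lowest junction ratios, and Rpl31, Rps24, Rpl22l1, Rpl3, Rpl12, Rpl10a, Rps3 and Rpl30. Further events of genes named by the rule, and those of Rpl13a, Rps2 and Rps9, were chosen after their values were seen. A few genes that the rule or the lists name are not reported here. The genes and lists were chosen with earlier results of these data known. Alternatives were other tests, minimum counts, thresholds, pseudocounts and scalings, and leaving out libraries.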

Additional observations from a re-analysis of the deposited data

How the results depend on the processing

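No paired analysis was possible because the columns of the table carry no replicate numbers. The count of ribosomal protein events called by the quasi-binomial test, 0, was 1 with the spread placed along the total count (the Rpl31 intron, where 0.162% of all tested events were called) and 3 with no minimum change, and 0 under the other settings run. The count at any size of change, 3, was 9 with the spread along the total count (0.309% of all tested events), 0 with limma on logit levels, 1 to 3 when single libraries were left out (1 without library 2 of set 1 and 1 without library 1 of set 2), and 0 without library 1 of either set. The logit test could not pass events whose levels all lay beyond its bounds of 0.01 and 0.99. The authors' calls, 2, fell to 1 at their adjusted p under 0.01 and came to 4 with no minimum change (1.13% of all events). Events with a less used form at 0.05 or more, 31, were 55 at 0.01 or more (53.3% of all tested events) and 17 without mutually exclusive exons. The 0 genes that passed on junction totals became 1, Rps14, without library 1 of either set, where 4.9% of all genes passed. This last setting, the omission of mutually exclusive exons and the shares of single junctions were added after seeing the data.

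Genes below 0 in their log2 ratio numbered 51 to 61 of 65 over all settings. The ratio of Rps18 turned to -5.1e-05 with scaling without the ribosomal protein genes, ranged from -0.0763 to 0.10 when single libraries were left out, and turned to -0.0095 without library 1 of either set. That of Rps15 ranged from -0.022 to 0.058 when single libraries were left out. The cause of these shifts was not tested.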
